A study of Drosophila melanogaster with 3 samples.

Results

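The genes described here make, sense and answer the steroid hormone ecdysone, and what was measured at them is binding of the boundary protein BEAF-32. They were chosen by name, as a list of 10: phm, dib, sad and shd for synthesis of the hormone, EcR and usp for its receptor, and br, Eip74EF, Eip75B and ftz-f1 for the response. All 10 were found in the annotation, phm under the symbol phtm, among 13945 protein-coding genes of the main chromosome arms. The libraries came from a transgenic Drosophila melanogaster line carrying BEAF-32 with GFP at its C-terminus, precipitated with an antibody against GFP according to the sample descriptions, although the antibody label itself names BEAF-32. Embryos of both sexes, 0 to 14 hours old, were taken whole, and their chromatin was sonicated to 200 to 800 bp. There was 1 group, with 3 biological replicates, so binding was described and not compared between conditions. A signal from whole embryos is an average over all cell types and over the whole collection window, and the labels name no promoter for the transgene. Peak lists give no expression, so the labelled stage and tissue could not be checked against marker genes.

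Ecdysone is made from sterols by a chain of enzymes, several of them cytochromes P450 known as the Halloween genes because embryos that lack them die with a ghostly, undifferentiated cuticle. The active hormone binds a heterodimer of the nuclear receptors EcR and Ultraspiracle, which switches on a small set of early genes for transcription factors, and these in turn control later, tissue-specific genes. BEAF-32 is a DNA-binding protein found at borders between chromosome domains and near the starts of many housekeeping genes, often at clusters of the letters CGATA, and the palindrome TATCGATA is also the site of the factor DREF.

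BEAF-32 summits lay at 3 of the 10 genes, usp, ftz-f1 and Eip75B, beside 43.7% of all coding genes. The sequences that follow are a selection, made after their letters were read: the summits at starts of ftz-f1 and Eip75B, flanking summits of high signal with and without the CGATA motif, the intronic summits of Eip74EF and Eip75B away from starts, and the bases before 1 start that has no summit. All are from build dm6, plus strand, 101 bases centred on the summit unless an untranslated exon of any gene cuts the window short. Capitals mark CGATA read on either strand, and TATCGATA holds it on both. The strongest summit of usp and that at the fifth Eip75B start lie within untranslated exons and are not printed. Other summits could have been printed but were left out of the selection. Among them are the weaker usp summit and the flanks of sad at Kyat (signal 8524.4) and Eip75B at CG5290 (3921.1). These hold no CGATA in the bases that could be printed.
ftz-f1 start, chr3L:18801521-18801621: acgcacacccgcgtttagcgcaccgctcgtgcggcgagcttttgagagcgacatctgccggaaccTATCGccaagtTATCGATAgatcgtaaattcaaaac
ftz-f1 distal flank at Atg3, chr3L:18748580-18748680: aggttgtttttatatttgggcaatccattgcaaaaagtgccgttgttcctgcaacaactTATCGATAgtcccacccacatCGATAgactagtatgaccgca
Eip74EF distal flank at CycT, chr3L:17557789-17557862: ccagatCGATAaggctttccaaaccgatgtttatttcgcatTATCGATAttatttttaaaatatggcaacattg
shd distal flank at RecQ5, chr3L:14632141-14632241: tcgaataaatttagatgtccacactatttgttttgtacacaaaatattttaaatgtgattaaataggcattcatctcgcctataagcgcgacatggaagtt
phm distal flank at CG18259, chrX:18783687-18783787: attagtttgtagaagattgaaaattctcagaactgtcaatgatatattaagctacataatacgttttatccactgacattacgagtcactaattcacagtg
br proximal flank near inc, chrX:1517650-1517750: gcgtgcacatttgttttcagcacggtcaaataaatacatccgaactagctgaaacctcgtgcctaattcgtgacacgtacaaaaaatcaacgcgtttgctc
br distal flank at dor, chrX:1664980-1665051: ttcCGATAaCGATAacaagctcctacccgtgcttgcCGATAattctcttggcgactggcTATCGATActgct
Eip75B start 2, chr3L:18061454-18061539: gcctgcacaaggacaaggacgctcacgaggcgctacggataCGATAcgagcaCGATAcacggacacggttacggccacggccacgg
Eip75B start 4, chr3L:18026119-18026219: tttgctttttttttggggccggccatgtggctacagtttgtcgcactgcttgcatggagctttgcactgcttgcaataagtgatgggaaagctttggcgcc
Eip75B intron, stronger summit, chr3L:17992026-17992126: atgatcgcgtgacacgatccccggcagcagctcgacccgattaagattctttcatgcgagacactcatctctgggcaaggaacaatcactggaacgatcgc
Eip75B intron, weaker summit, chr3L:17988297-17988397: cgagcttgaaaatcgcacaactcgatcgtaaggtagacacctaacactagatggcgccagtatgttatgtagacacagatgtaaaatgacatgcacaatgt
Eip74EF intron, stronger summit, chr3L:17614078-17614178: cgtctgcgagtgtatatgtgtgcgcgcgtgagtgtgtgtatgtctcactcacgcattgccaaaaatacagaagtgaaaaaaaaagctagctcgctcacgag
Eip74EF intron, weaker summit, chr3L:17597104-17597204: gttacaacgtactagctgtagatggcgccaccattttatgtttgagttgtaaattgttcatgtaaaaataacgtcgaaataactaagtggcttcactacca
phm, bases before its start, chrX:18685666-18685765: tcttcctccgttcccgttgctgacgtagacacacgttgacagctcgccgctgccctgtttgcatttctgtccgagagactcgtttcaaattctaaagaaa
The ftz-f1 start and the flanks at Atg3 and CycT each hold 1 TATCGATA and 1 further CGATA, and the flank at dor holds 3 further copies. The flanks at RecQ5 and CG18259 and near inc hold no CGATA in the bases printed. Within 100 bases of the summit, the window of the counts below, the flanks at RecQ5, Kyat and CG5290 do hold CGATA. Those at CG18259 and near inc do not. The 4 intronic sequences, the fourth Eip75B start and the bases before phm hold none either.

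The authors deposited a list of 6070 reproducible summits (the IDR list, chosen by how well peak ranks agree between replicates). They also deposited longer relaxed lists for the pooled data, with 30000 summits, and for each replicate, with 26497, 30000 and 30000. The pooled relaxed list is labelled as peaks and background given as input for IDR. A summit found in it but not in the IDR list may therefore be background. The IDR list holds the 6070 strongest pooled summits, whose signal runs from 139 to 22477 with a median of 579. Signal is the authors' own peak value on a scale that the sources do not state, and read depth is unknown, so signals are ranked within a list and never compared between lists. A start is called bound here when an IDR summit lies within 500 bp of it, and a gene when any of its starts is bound. By this rule 6092 coding genes were bound, which is 43.7%, and in the 6070 strongest summits of each replicate alone the share was 41.5% ± 1.77 (SD, n = 3).

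Of the 10 genes, 3 were bound, 3 in each replicate alone, and they were the same 3 genes. The background was 43.7% of coding genes for the IDR list and 38.6% for a call in every replicate. The 10 genes have 33 distinct starts, of which 6 (18.2%) were bound, beside 38.8% of all 19607 coding starts. Starts of the same gene are not independent, and br alone has 9 of the 33, none of them bound. None of the 4 synthesis genes was bound, and 3 of the 6 receptor and response genes were. With so few genes neither count was tested, and the 2 groups also differ in length and number of starts. The synthesis genes have a median length of 2594 bp and a median of 1 start, whereas the receptor and response genes have a median of 70934.5 bp and 3.5 starts. Over all coding genes 38.9% of those with 1 start were bound, 56.9% of those with more starts, and 32.2% of those longer than 50000 bp. The median distance from a gene's starts to the nearest IDR summit was 17033.5 bp for the synthesis genes, 1223 bp for the receptor and response genes and 1990 bp for all coding genes.

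**Figure D1:**
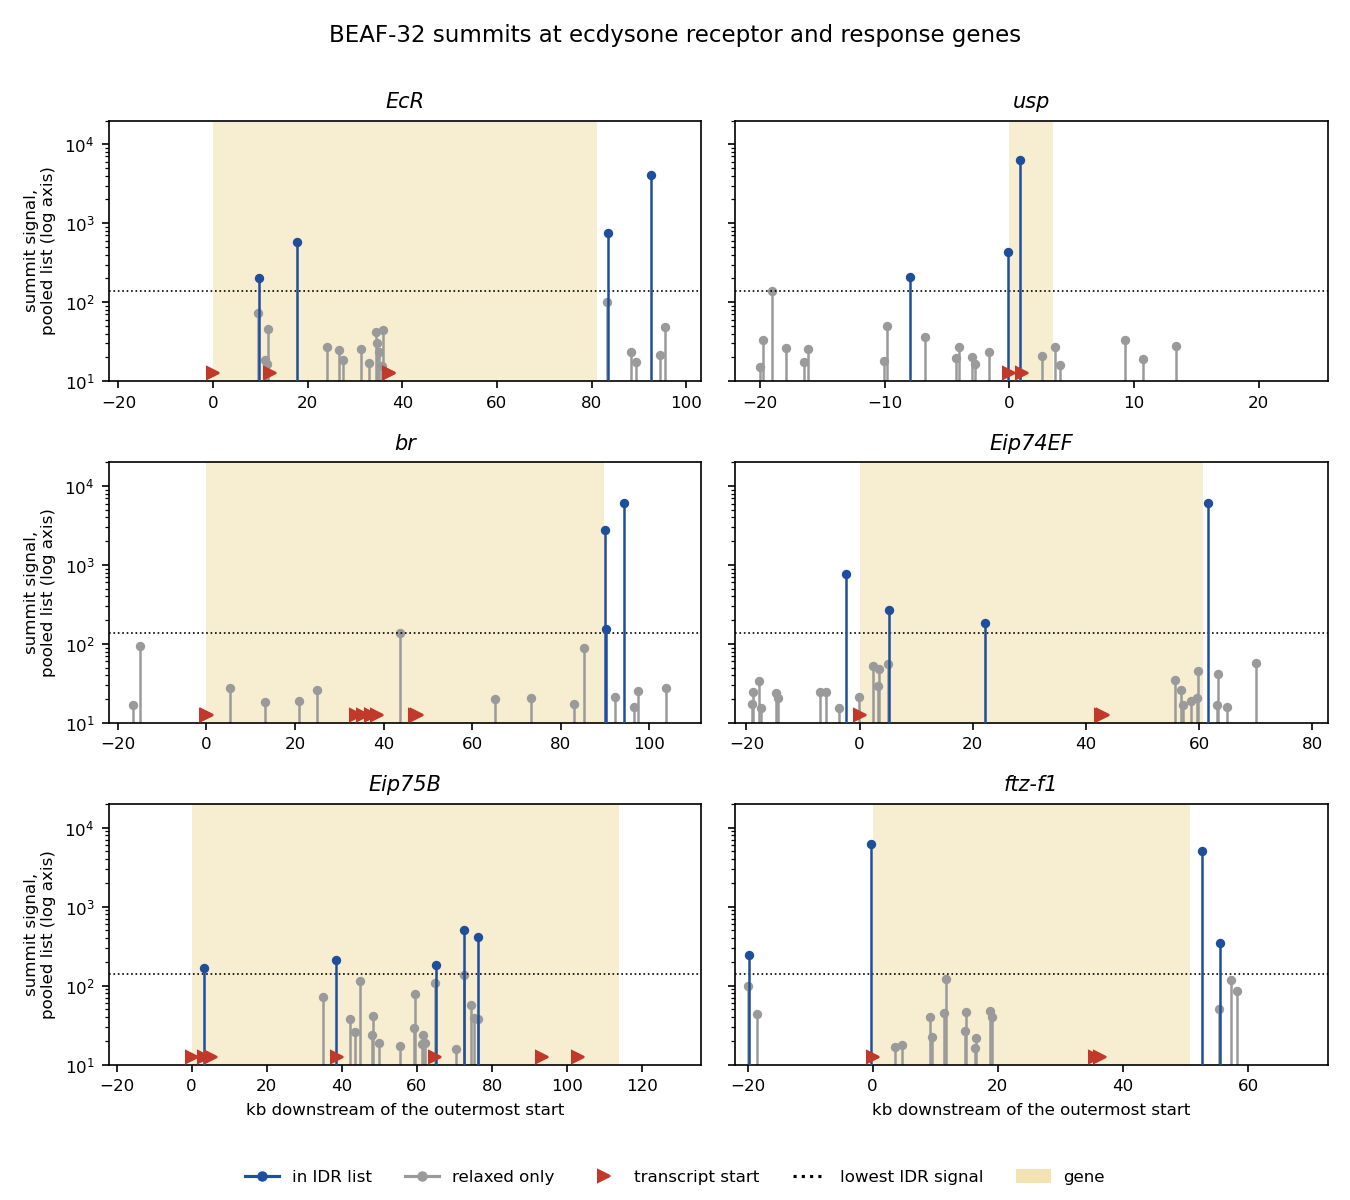
Summits of the pooled list around the 6 receptor and response genes, with distance in kb from each gene's outermost start along its direction of transcription and the authors' signal on a log axis. Blue summits are in the IDR list, grey ones are not, and red arrowheads are annotated starts. The tall summits drawn stand at starts of usp and ftz-f1 and beyond the far ends of EcR, br, Eip74EF and ftz-f1. Those inside EcR, Eip74EF and Eip75B stay under 579, the median signal of the IDR list. Summits over 20000 bp from a gene are not drawn. Among these are one of 4257.3, 57432 bp upstream of br, and one of 3921.1, 38302 bp beyond the far end of Eip75B.

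The 2 subunits of the hormone receptor differed in binding. The gene usp (FBgn0003964, X:2038798-2042311, minus strand) encodes Ultraspiracle, the fly counterpart of the vertebrate retinoid X receptor, and is short, at 3514 bp, with 2 starts. Its inner start had a summit 185 bp upstream with a signal of 6251.6, rank 486 of the IDR list. In replicates 1, 2 and 3 this summit had signals of 2189, 1794 and 2399 and ranks of 545, 457 and 470. No replicate ranked it lower than 545. Its neighbours in rank were the summits at Sgf29, at rank 485, and Der-1, at rank 487. The outer start had a weaker summit 122 bp upstream, in the same region of 1727 bp, with a pooled signal of 431.3 and rank 3578. Its replicate ranks of 4498, 4770 and 4362 were far from those of the inner summit, and the ranges did not overlap. The outer start is not particular to usp: Actn, which encodes the actin crosslinker alpha-actinin, starts at the same base in the annotation, and CG4313 also starts within 500 bp, so these summits cannot be assigned to 1 gene by position.

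EcR (FBgn0000546, 2R:6087873-6169087, minus strand), which encodes the hormone-binding subunit, had no IDR summit within 500 bp of any of its 4 starts. Its gene body of 81215 bp held 2 IDR summits. The stronger lay in an intron 5760 bp downstream of the start at 6157129, with a pooled signal of 578.5 and rank 3037, and replicate ranks of 2949, 3979 and 3485. The weaker, with a signal of 205.3 and rank 5137, fell in an exon of the non-coding gene lncRNA:CR43904, 2184 bp upstream of the same start. At that start the relaxed lists held a weak summit, with pooled signal 46.3 and rank 10355 and replicate ranks of 7786, 9188 and 14134. It was present in all 3 replicates and below the IDR list in each. The 2 innermost starts shared a relaxed summit in replicate 2, at rank 12651, and the one at 6131841 also had one in replicate 3, at rank 26768, but neither had one in the pooled list. The outermost start had none in any list. The nearest IDR summits outside the gene were 2199 bp beyond its far end, 49 bp upstream of Ars2, with a signal of 751.0, and 45086 bp beyond its outermost start, at Ttc7, with a signal of 417.8.

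Among the response genes, ftz-f1 carried the strongest summit. It encodes an orphan nuclear receptor that makes tissues competent to answer later hormone pulses and that in the early embryo works with the segmentation protein Fushi tarazu. The gene (FBgn0001078, 3L:18750607-18801309, minus strand) has 3 starts. The outermost had an intergenic summit 262 bp upstream with a pooled signal of 6178.0 and rank 497. Its signals in replicates 1, 2 and 3 were 2071, 1845 and 2302 and its ranks 611, 435 and 500. The range of these ranks overlapped that of the inner usp summit, so the order of the 2 was not resolved. No other coding gene starts within 500 bp of this ftz-f1 start, unlike at usp. The other 2 starts lay 16326 and 17114 bp from their nearest IDR summit and had no relaxed summit within 500 bp in any list. That nearest summit lies 1977 bp beyond the far end of ftz-f1, 57 bp upstream of Atg3, an autophagy gene, with a signal of 5097.3, rank 717, and replicate ranks of 692, 751 and 704. The gene body between these strong summits, 50703 bp long, held 12 relaxed pooled summits and no IDR summit. This is 23.7 relaxed pooled summits per 100 kb, beside 22.4 for the main arms. The strongest of the 12, 11662 bp downstream of the outermost start, had a signal of 121.7 and rank 6396.

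Eip75B (FBgn0000568, 3L:17950953-18064696, minus strand), a heme-binding nuclear receptor and early gene, was bound at 3 of its 7 starts, all weakly. The start at 17999821, the fifth along the gene, had a summit 85 bp downstream with a pooled signal of 183.3 and rank 5406, and replicate ranks of 5817, 6548 and 5592. The fourth start, at 18026032, had one 137 bp upstream with a signal of 211.6 and rank 5072, and replicate ranks of 5258, 8369 and 4935. The second start, at 18061453, had one 36 bp upstream with a signal of 168.1 and rank 5598, and replicate ranks of 6423, 5981 and 6913. In each replicate at least 1 of these starts fell within the 6070 strongest summits, but no single one did in all 3. The ranges of the 3 starts overlapped one another. The other 4 starts had no summit within 500 bp in the IDR list or in any relaxed list. The strongest summits of Eip75B were not at a start but in introns, with signals of 512.5 at 17992076 and 412.2 at 17988347, which is 7745 and 11474 bp downstream of the fifth start. Their replicate ranks were 3649, 3378 and 3585 for the first and 3960, 4013 and 4372 for the second. Both were ranked above all 3 start summits in every replicate.

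Eip74EF (FBgn0000567, 3L:17558672-17619325, minus strand) encodes an ETS-domain transcription factor and was not bound at any of its 3 starts. The outermost had a pooled relaxed summit of 21.5 at rank 21424, and the 2 inner starts had none. Within 500 bp of the outermost start replicate 3 had a summit, at rank 19791, and neither other replicate had one. Its body held 2 weak intronic IDR summits. The first, 5197 bp downstream of the outermost start, had a signal of 269.9, rank 4517, and replicate ranks of 5201, 5265 and 5048. The second, with a signal of 184.0 and rank 5394, was ranked 7054 and 5721 in replicates 1 and 3 and was absent from the replicate 2 list. By contrast the gene ended 860 bp from 1 of the strongest summits near any of the 10 genes. It lies 24 bp upstream of CycT, the cyclin of a transcription elongation kinase, with a signal of 6177.0, rank 498, and replicate ranks of 619, 359 and 517. On the other side an IDR summit 2381 bp beyond the outermost start, 81 bp upstream of Vps60, had a signal of 760.3 and rank 2648.

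The gene br (FBgn0283451, X:1575132-1664869, plus strand), which encodes the BTB zinc-finger factors of metamorphosis, had the most starts and no summit at any of them. Its 9 starts lay 42298 to 57449 bp from the nearest IDR summit, and no relaxed summit fell within 500 bp of them in the pooled list or in any replicate. Its body of 89738 bp held 9 pooled relaxed summits, which is 10 per 100 kb beside 22.4 per 100 kb for the main arms. The strongest of these, 43766 bp downstream of the outermost start, had a signal of 137.3 and rank 6105, just short of the IDR list. By the same measure EcR, Eip74EF and Eip75B held 19.7, 19.8 and 21.1 pooled relaxed summits per 100 kb. The stretch free of IDR summits around br is 147330 bp long, longer than that around 84.9% of coding genes. It ends 161 bp past the far end of br, 22 bp upstream of dor, an endosome and lysosome trafficking gene. That summit had a signal of 2758.9, rank 1389, and replicate ranks of 1460, 1378 and 1384. At the other end, 57432 bp before the outermost start, the nearest summit had a signal of 4257.3 and rank 903.

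**Figure D2:**
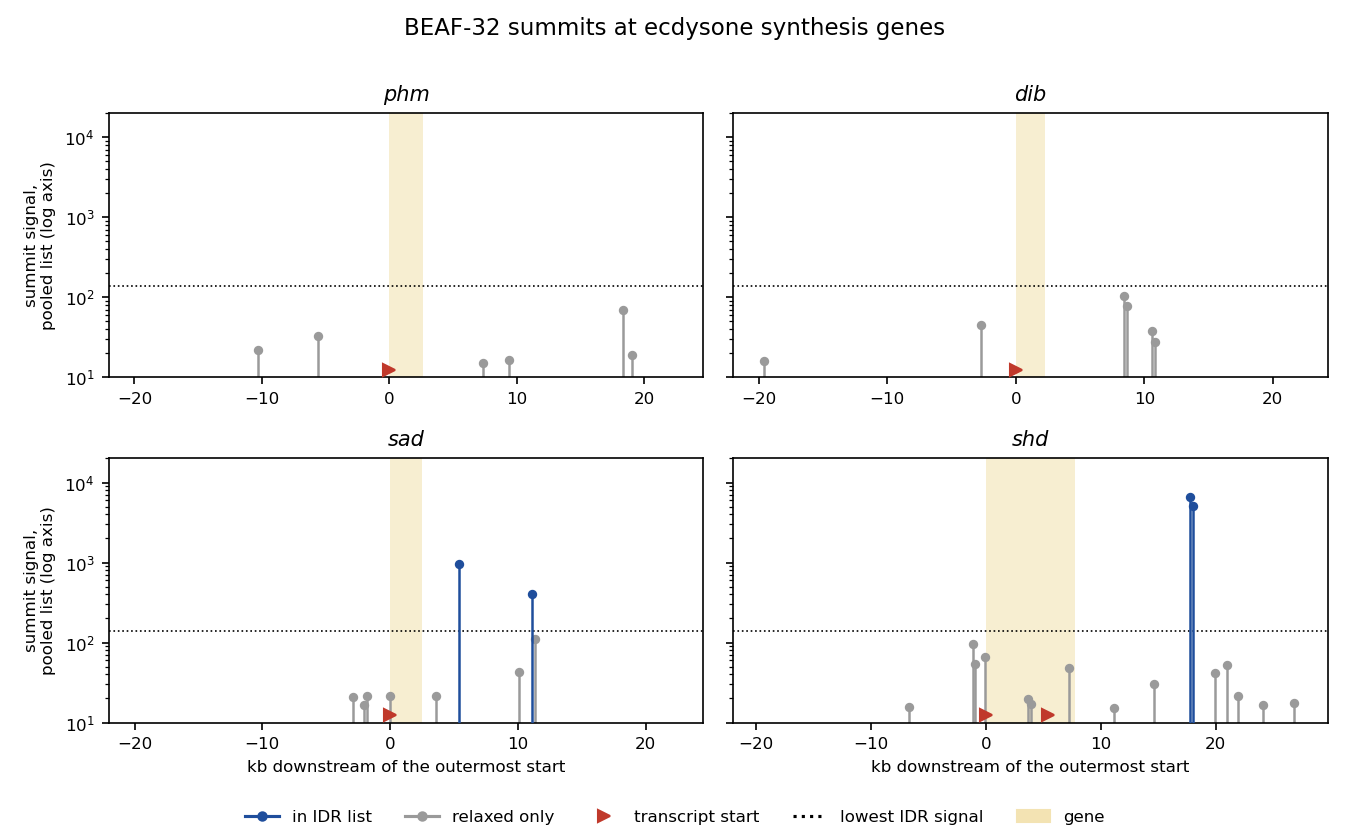
Summits of the pooled list around the 4 synthesis genes, drawn as for the receptor and response genes. No IDR summit falls within 20000 bp of phm or dib, and the nearest to sad and shd stand beyond their far ends, 5425 and 12361 bp from a start.

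The synthesis genes had no IDR summit at any of their 5 starts or inside any of the 4 genes. The gene phm (FBgn0004959, X:18685766-18688433, plus strand) and dib (FBgn0000449, 3L:4062292-4064551, plus strand) encode P450 enzymes that act in successive steps towards ecdysone. Neither had a relaxed summit within 500 bp of its start in the pooled list or in any replicate, nor any inside the gene. The nearest IDR summit to phm was 28453 bp upstream, at CG6659, with a signal of 533.3, and the next on the far side was 95304 bp beyond the gene. This left a free stretch of 126424 bp, longer than that of 81.9% of coding genes, beside a median of 27082 bp. For dib the nearest was 21706 bp upstream, at Rcd5, with a signal of 156.1 and rank 5769, and its free stretch was 62409 bp.

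The enzyme that makes ecdysone itself, encoded by sad (FBgn0003312, 3R:11877235-11879754, plus strand), had a pooled relaxed summit 10 bp upstream of its single start, with a signal of 21.7 and rank 21191. Within 500 bp of that start replicate 2 had a summit, at rank 16344, and replicates 1 and 3 had none. Its nearest IDR summit, 2906 bp beyond the gene and 126 bp upstream of CG6962, had a signal of 966.2 and rank 2368. The gene shd (FBgn0003388, 3L:14614458-14622205, plus strand) encodes the enzyme that turns ecdysone into its active form in target tissues. Its outer start had a pooled relaxed summit 90 bp upstream with a signal of 66.9 and rank 8359. The strongest replicate summits within 500 bp of this start had ranks of 16055, 11397 and 8375. This was the only synthesis start of the 5 with a relaxed summit in all 3 replicates, and its rank range overlapped that of EcR's. The inner start had a relaxed summit in replicate 2 alone, at rank 28637. The nearest IDR summit to shd, 9986 bp beyond the gene and 114 bp upstream of the DNA helicase gene RecQ5, had a signal of 6519.6, rank 454, and replicate ranks of 404, 460 and 409. Flanking summits are named by the nearest start, and several have another gene starting within 500 bp. That gene is dlp for the summit at RecQ5, anchor at Vps60, Nufip at Atg3 and CG31368 at CG6962. It is CG11593 at Rcd5, fu at CG6659 and bin3 at Ttc7.

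With the pooled relaxed list in place of the IDR list, 7 of the 10 genes had a summit within 500 bp of a start, beside 59.7% of all coding genes. These were 2 of the 4 synthesis genes, sad and shd, and 5 of the 6 receptor and response genes. The 3 without one were phm, dib and br.

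**Figure D3:**
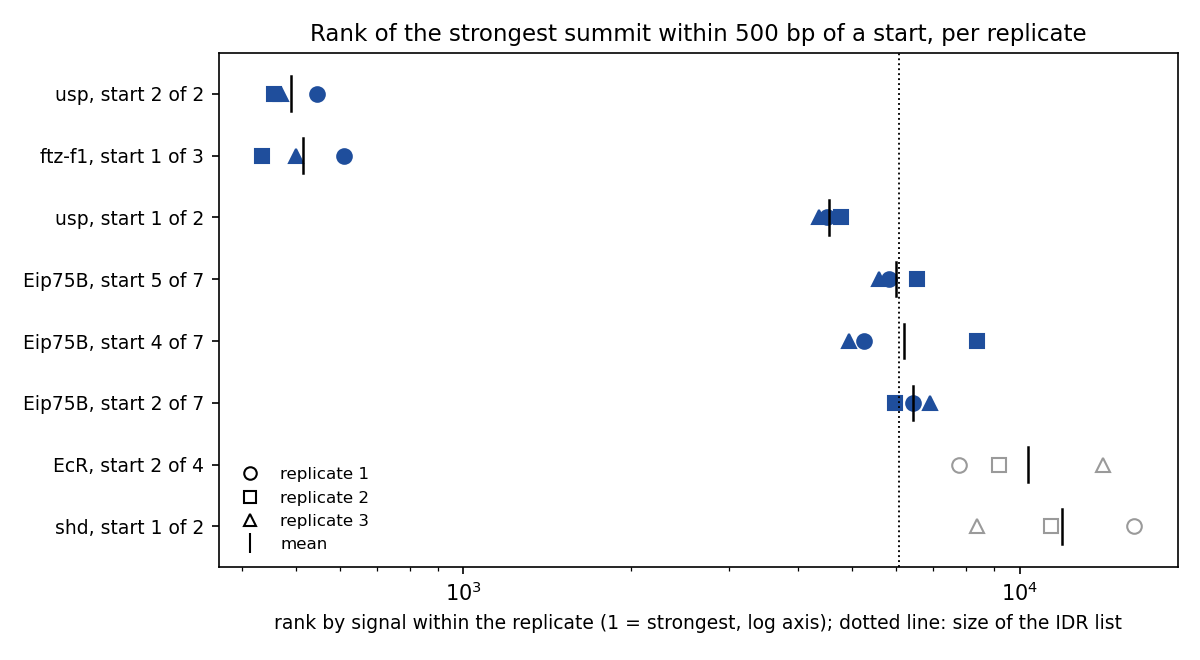
Rank by signal of the strongest summit within 500 bp of a start, on a log axis, in replicate 1 (circles), 2 (squares) and 3 (triangles), for the 8 starts with a summit in every replicate. Starts are numbered from the outermost, filled symbols are bound starts, bars are means and the dotted line marks rank 6070. The inner usp start and the ftz-f1 start stand near rank 500, apart from the other 6.

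Over the 8 starts with a summit in all 3 replicate lists, the order was led by the inner usp start, with a mean rank of 490.7 ± 47.5 (SD, n = 3), and ftz-f1, with 515 ± 89.0. The outer usp start followed at 4543 ± 208, with a range that overlapped neither neighbour. The 3 starts of Eip75B came next, at 5986 ± 500, 6187 ± 1896 and 6439 ± 466, and the order among them was not resolved. The EcR start at 10369 ± 3335 and the shd start at 11942 ± 3869 had ranges that overlapped each other, and that of EcR also overlapped the range of the fourth Eip75B start, in which replicate 2 stood apart at rank 8369.

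CGATA, on either strand within 201 bases, was found at 58.3% of IDR summits and around 37.1% of all 19252 positions of coding starts. It was found around 5 of the 33 starts described here. Each of the 10 genes was also given its nearest IDR summit on either side and those in its body, 30 summits in all, and CGATA was found at 18 of them. Of the 11 with a signal above 1000, 9 held it, and the 2 without it were those near inc and CG18259, which flank br and phm. TATCGATA, whose every copy also counts as CGATA on each strand, was present at 7 of the 30, beside 16.9% of IDR summits, and at 6 of the 11. Neither motif was counted over all IDR summits with a signal above 1000, so the counts for the 11 have no matched background. It was present around none of the 33 starts, beside 6.45% of coding starts. Of the bound starts, the ftz-f1 summit held it and both usp summits held CGATA alone, as did 1 of the 3 at Eip75B. GAGAG, the letters bound by the GAGA factor, was present around 12 of the 33 starts and 25% of coding starts, and at 5 of the 30 summits beside 16.1% of IDR summits. An idealised hormone response element, the inverted repeat GGTCANTGACC, was in 0 of the 6070 summits and around 3 coding starts (0.0156%), none of them among the 33. A match describes the letters and not a site in use.

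**Figure D4:**
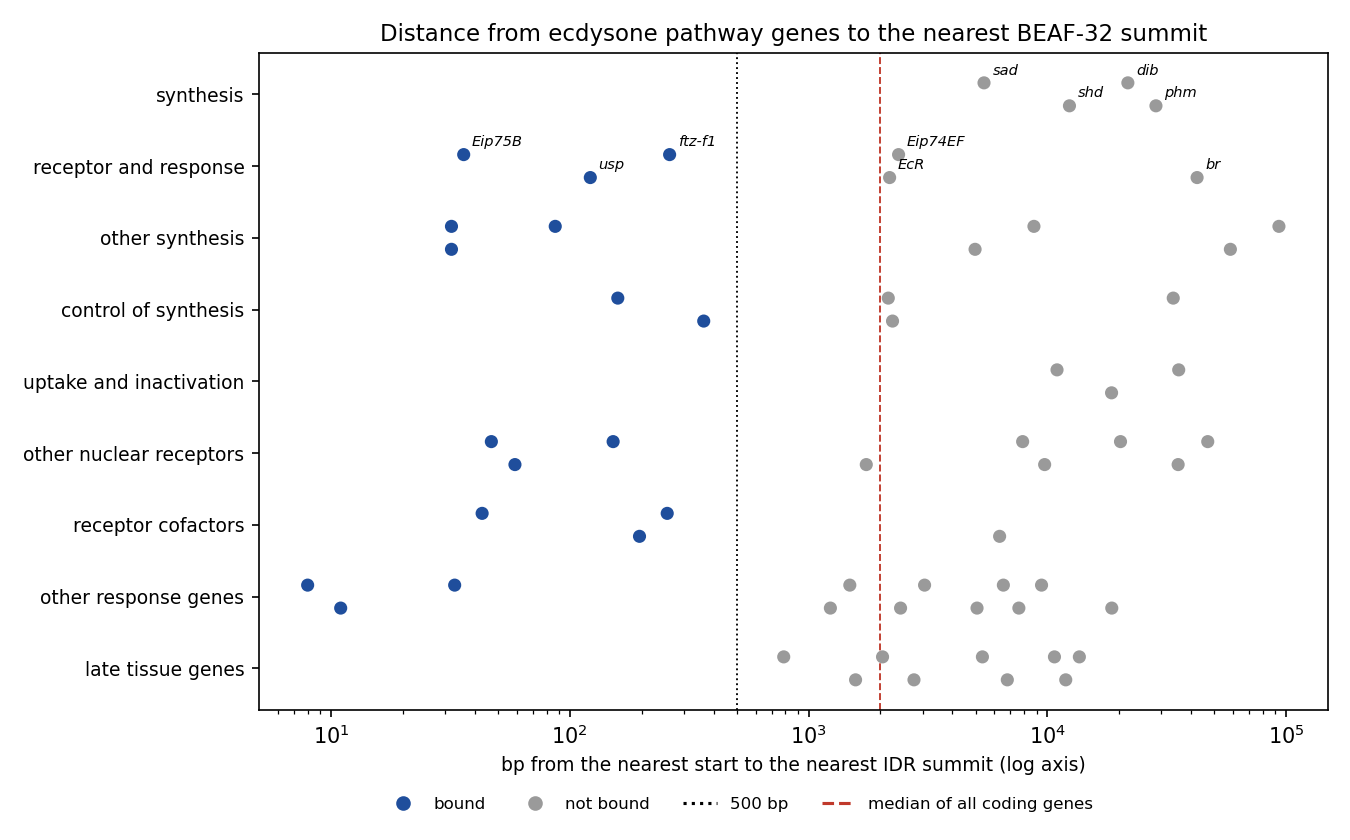
Distance in bp, on a log axis, from each pathway gene's starts to the nearest IDR summit, for the 10 genes (named, upper 2 rows) and 49 other ecdysone pathway genes by role. Blue points are bound within 500 bp (dotted line) and the dashed line marks 1990 bp, the median of all coding genes. All 4 synthesis genes, the 3 genes of uptake and inactivation and 7 of the 9 late tissue genes lie to the right of the dashed line. Every other row has genes on both sides of it.

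Of 49 other genes of the pathway, 14 were bound (28.6%), beside 43.7% of all coding genes, and 14 were bound in every replicate taken alone, beside 38.6%. The counts by role below come from 3 to 12 genes each, were not tested, and are read against the same 43.7%. Among 7 other synthesis genes the 3 that were bound were the sterol transporter Npc1a, with a signal of 5053.3, the lipid-transfer protein Start1, with 594.1, and the adrenodoxin reductase dare, with 375.2. The Halloween genes spo, spok and sro, and nvd, which acts first on cholesterol, were not bound: nvd, spo, spok and sro had their nearest IDR summits 93099, 8778, 58308 and 4977 bp away. On its chromosome arm spok has an IDR summit on only 1 side. The body of nvd held 1.3 pooled relaxed summits per 100 kb, beside 22.4 for the main arms. Among genes that control synthesis, mld and tor were bound and Ptth, ouib and vvl were not. None of EcI, Cyp18a1 and Eo, which import the hormone or inactivate it, was bound.

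Of 9 other nuclear receptors and factors of the response, Hr39 (2401.7), Hr78 (296.1) and Hr96 (1304.0) were bound, with signals in parentheses. Hr3, Hr4, Hr38, Eip78C, E93 and svp, like EcR, were not. Of 4 cofactors of the receptor, 3 were bound: trr, a histone methyltransferase, with a signal of 4591.6, tai, a coactivator, with 364.0, and rig with 285.5. The corepressor Smr was not, although it held 2 IDR summits in its body. Of 12 other response genes 3 were bound, crol with a signal of 4939.4, Eip55E with 322.8 and Eip63E with 288.1. Kr-h1, Blimp-1, Eip63F-1, Eip71CD and the genes ImpE1, ImpE2, ImpE3, ImpL1 and ImpL2 were not. Of these, Kr-h1 was called in replicate 2 alone, at rank 6047, with a best pooled rank of 6235. Eip63F-1 was called in replicate 1 alone, at rank 5499, with a best pooled rank of 9623. None of the 9 late tissue genes was bound, which are the glue genes Sgs3, Sgs5, Sgs7 and Sgs8, the cuticle genes Edg78E, Edg84A and Edg91, and the fat body genes Fbp1 and Lsp2. As at usp, several of the bound pathway genes have a start within 500 bp of the start of another coding gene: Npc1a of Prosalpha6, mld of CG13625, Hr96 of EMC6, tai of CG9586, trr of mRpL16 and rig of maf-S. So do the unbound genes Hr3, svp, ImpL2, Kr-h1, Sgs7 and Sgs8, and the share over all coding genes was not counted.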

How the data were processed

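Peak lists from 3 biological replicates in build dm6 were used. The authors deposited a signal for every peak, whose scale is not stated. Neither an aligner nor a peak caller is named in the labels or headers. Per the file headers each relaxed list came from alignments with a control alignment, and the IDR list from the relaxed lists. The lists in build dm3 were not used. A summit is the region start plus the deposited offset. Ranks are by signal within a list, and no line is shared between replicates. Starts were all distinct transcript starts of coding genes in Ensembl release 115 (BDGP6.54); 5 symbols were replaced by the annotation's. A summit within 500 bp of a start counted. In replicate lists the strongest summit within 500 bp of a start gave its rank; an IDR summit was matched to the strongest within 200 bp. No test was run: counts stand beside those of all coding genes. Motifs were searched on both strands within 100 bases of a summit or start. Sequences are from RefSeq's dm6 genome.

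The 10 genes and the lists of other pathway genes were chosen with earlier results of these data known. Genes named are the 10, the pathway lists in full, genes starting within 500 bp of a counted summit, those at nearest flanking summits, and those next in rank to the strongest. The alternatives were distances of 200 and 1000 bp, region overlap, stricter and relaxed lists, single replicates, the outermost start, other list sizes and replicates left out. Scripts were tested on simulated data and run with Python 3.11.15, numpy 2.4.6, pandas 2.3.3 and matplotlib 3.10.9.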

Additional observations from a re-analysis of the deposited data

How the results depend on the processing

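Of 63 alternative values for 7 counts and shares, 54 stayed within 1.5 times the value reported or within its replicate spread, and 9 moved. With the pooled relaxed list, labelled as peaks and background, the genes with a summit rose from 3 to 7 and synthesis genes from 0 to 2. Receptor and response genes rose from 3 to 5, starts from 6 to 10 and other pathway genes from 14 to 29. With the stronger 3035 IDR summits, starts fell to 2, coding genes bound to 28.5% and other pathway genes to 7. With whole relaxed lists the genes bound in every replicate rose from 3 to 5. Leaving out replicate 1, 2 or 3 gave 3 each time, as it must, since each replicate alone called the same 3 genes. These values are no further check, though they count among the 54. In 3 settings 2 of the 10 genes were bound: within 200 bp the call of ftz-f1 was lost, and with the outermost start only, or the stronger IDR summits, that of Eip75B. Merging starts within 100 bp, and counting only summits nearer to the gene than to another gene's start, were added after the data were seen and gave 6 starts and 3 genes. The summits of Eip75B rank near the end of the IDR list, and that of ftz-f1 lies 262 bp from its start. Read depth and the signal scale are unknown, so a start without a summit is one not called at this depth.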

Other observations

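Within their introns EcR, Eip74EF and Eip75B each held an IDR summit with the letters AGATGGCGC, a form of the core recognised by the insulator protein CTCF, searched on both strands within 201 bases. These summits had signals of 578.5, 184.0 and 412.2, and those at Eip74EF and Eip75B, in each gene the weaker of 2 intronic summits over 500 bp from a start, are printed above. AGATGGCGC was present at 63 of 6070 IDR summits (1.04%), around 0.187% of coding starts, at 3 of the 30 summits in or beside the 10 genes and around none of their 33 starts. The motif was chosen after the sequences were read, so this is a description only, and whether CTCF binds there was not tested.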
